A study of Homo sapiens with 16 samples.

Results

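The ER membrane protein complex (EMC) was followed at the mRNA level through the genes of its 10 subunits: EMC1, EMC2, EMC3, EMC4, MMGT1 (the gene of EMC5), EMC6, EMC7, EMC8, EMC9 and EMC10. The members were chosen by name, as the rows of the count table whose Ensembl identifier maps to one of these symbols. All 10 were found among the 58051 genes of the table, and all 10 had enough counts to be tested. The cells were LNCaP, a human prostate cancer line, in 4 groups of 4 libraries. In the knockdown experiment they received Allstar control siRNA (siCtrl) or XBP1 siRNA (siXBP1) for 2 days, and in the inhibitor experiment DMSO (Vehicle) or 10 µM MKC8866, a blocker of the RNase of IRE1α, for 24 h. Every group, controls included, was then given 30 nM thapsigargin for 3 h. Thapsigargin stops the pump that fills the ER with calcium and so induces ER stress, and all measurements are therefore of stressed cells. One XBP1 siRNA product was used, so that loss of XBP1 and any other effect of that siRNA cannot be told apart in the knockdown experiment. The experiments had separate controls and different lengths of pretreatment.

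The EMC is an assembly of the ER membrane that inserts transmembrane segments which the SEC61 channel handles poorly, among them the single anchors of tail-anchored proteins and the first segments of many receptors and transporters. EMC3, EMC6 and EMC5 form the core of the complex within the membrane, and EMC3 belongs to the same insertase family as GET1 and TMCO1. EMC2 with EMC8 or its paralog EMC9 forms the cytosolic cap. EMC1, EMC7 and EMC10 carry the domains that face the ER lumen, and EMC4 lies at the edge of the complex. XBP1 is the transcription factor made when IRE1α removes a short intron from its mRNA, and it is known for raising genes of ER import and folding.

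Between 28713607 and 34509488 fragments were counted per library. XBP1 itself, checked first, stood at 386, 422, 366 and 359 CPM (counts relative to the total of the library, with TMM normalisation) in the siCtrl libraries and at 51.2, 54.2, 54.2 and 53.2 CPM after siXBP1, a log2 fold change of -2.85 (edgeR quasi-likelihood test, adjusted p = 2.92e-20). With MKC8866 its level was 537 to 619 CPM, against 483 to 539 CPM in Vehicle. The groups overlapped slightly, and XBP1 was called higher (log2 fold change 0.20, edgeR adjusted p = 0.00493). These counts do not separate the spliced from the unspliced form. The summed level of 4 markers of LNCaP cells (KLK3, KLK2, TMPRSS2 and FOLH1) was 2070 to 2180 CPM in siCtrl and 1620 to 1710 CPM in siXBP1, and it was 2190 to 2260 CPM in Vehicle and 2510 to 2560 CPM with MKC8866. KLK3, KLK2 and TMPRSS2 were called lower in the knockdown and FOLH1 was not (log2 fold change -0.01), while with MKC8866 KLK3 alone was called, higher, by 0.46. The part of these shifts in the results was not tested. Among 6 markers of other cell types, PTPRC, PECAM1, COL1A2 and KRT5 had at most 3 fragments in any library, and the sum of that list was 25.0 to 36.8 CPM in the 4 groups, nearly all of it from COL1A1. The siCtrl library 4 stood furthest from its group, and without it the members called in the knockdown were still 4 lower and 1 higher.

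In RefSeq's table of promoters on GRCh38.p14, which runs from 250 bases before to 50 bases after each start, 8 of the 10 genes had an entry, and EMC2 and MMGT1 did not. The windows were searched on both strands for CCACG, the last part of the ER stress response element, for TGACGT, a core to which XBP1 and ATF6 bind, for TGACGTGG, its longer form, and for the full ER stress response elements ERSE and ERSE-II. CCACG is also found within TGACGTGG read on the other strand and within both full elements, so these searches overlap. CCACG was found in 3 of the 8 windows (EMC6, EMC8 and EMC9) and in 37.9% of all 27305 promoters. TGACGT was found in 2 of the 8, once in EMC4 and at 7 positions in EMC10, and in 8.32% of all promoters. The 3 longer motifs were in none of the 8, and in 0.795%, 0.0806% and 0.0549% of all promoters. The matches that lay outside exons of the deposited annotation are shown here because they can be set beside the changes given further down, with 30 bases each on the strand of the gene and the match in capitals.
EMC4 (chr15:34224969-34224998, plus strand): caccaatttccagggcggaaaTGACGTcgt
EMC6 (chr17:3668735-3668764, plus strand): gtgtccggggcgcCCACGgcgcaggcgcgg
EMC9 (chr14:24141643-24141672, minus strand): atcaaggagcaCCACGTGGgcgggactcca
The EMC9 match reads the same on both strands and was counted as 2. The matches in EMC8 and EMC10 overlapped exons and are not shown. The windows of EMC1, EMC3 and EMC7 held none of the 5 motifs. A match of letters is a description of the sequence only.

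Of the 10 subunit mRNAs, 4 fell after XBP1 knockdown, EMC7 by far the most, then MMGT1, EMC2 and EMC1, and the mRNA of EMC8 rose. EMC3, EMC4, EMC6, EMC9 and EMC10 did not pass the test. Of the 21021 genes tested, 18.2% were called lower and 16.5% higher at an adjusted p under 0.05 and this is the background for the 4 members lower and the 1 higher. The median log2 fold change of the 10 members was 0.00 and that of all genes tested was also 0.00, with members from -1.80 (EMC7) to 0.36 (EMC8). All 4 siXBP1 libraries lay below all 4 siCtrl libraries for the 4 members called lower, against 17.2% of all genes, and above them for EMC6 and EMC8, against 15.5% of all genes. A lower level in bulk RNA does not tell less mRNA per cell from fewer cells that carry it.

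**Figure D1:**
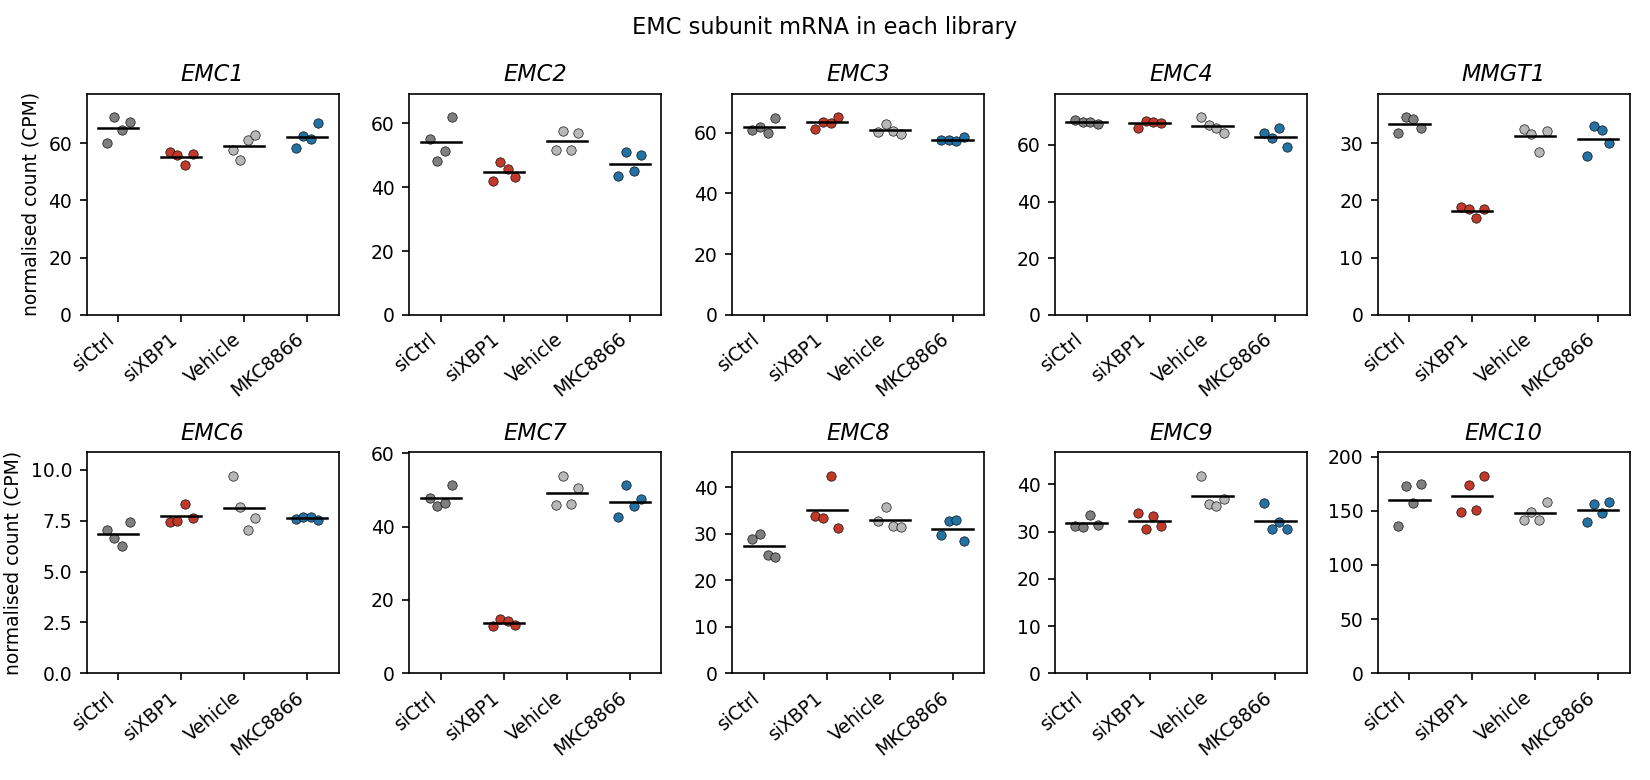
Normalised counts (CPM) of the 10 EMC subunits in each of the 16 libraries, with 4 libraries per group, a point for each library and a line at the group mean. The siXBP1 libraries lie at 12.9 to 14.7 CPM for EMC7 and 16.9 to 18.9 CPM for MMGT1, below every library of the other 3 groups.

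EMC7, which lies on chromosome 15 (34084017 to 34101948, minus strand, GRCh38) and encodes a subunit with a folded domain in the ER lumen, was the member with the largest change. Its level was 47.7, 45.7, 46.6 and 51.4 CPM in the siCtrl libraries. After XBP1 siRNA it was 12.9, 14.7, 14.2 and 13.3 CPM. All the treated libraries were thus far below the controls, with no overlap. The fall was 3.47-fold (log2 fold change -1.80 ± 0.06 SE, edgeR quasi-likelihood test, adjusted p = 4.54e-16). In the inhibitor experiment the same gene gave 45.8, 53.9, 46.1 and 50.6 CPM in Vehicle and 42.7, 51.5, 45.6 and 47.6 CPM with MKC8866. These groups overlapped, and the log2 difference was -0.07 (95% interval -0.19 to 0.06, edgeR adjusted p = 0.691). The difference between the 2 responses, tested as an interaction over all 16 libraries, was -1.73 (edgeR adjusted p = 2.95e-15).

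MMGT1, on chromosome X (135962070 to 135974063, minus strand), encodes EMC5 of the membrane core. The siCtrl libraries held 31.8, 34.5, 34.2 and 32.6 CPM and the siXBP1 libraries 18.9, 18.4, 16.9 and 18.5 CPM. The groups were well apart, with a 1.83-fold fall (log2 fold change -0.87 ± 0.06 SE, edgeR adjusted p = 3.68e-11). With MKC8866 the level was 27.8, 33.0, 32.2 and 29.9 CPM and in Vehicle 32.4, 31.6, 28.4 and 32.2 CPM, with the groups overlapping. That difference was -0.02 (95% interval -0.14 to 0.11, edgeR adjusted p = 0.945), and the responses differed by -0.85 (interaction, edgeR adjusted p = 3.78e-09). The other core subunits, EMC3 and EMC6, were not called in either experiment.

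EMC3, the insertase subunit proper, was at 60.0 to 64.7 CPM in siCtrl and 61.3 to 65.1 CPM in siXBP1, and the groups overlapped (log2 fold change 0.03, 95% interval -0.06 to 0.13, edgeR adjusted p = 0.626). With MKC8866 it was 57.6, 57.5, 57.1 and 58.5 CPM, below each of the Vehicle values of 60.3, 62.9, 60.5 and 59.6 CPM. The difference was nevertheless small (log2 -0.07 ± 0.04 SE) and did not pass the test (edgeR adjusted p = 0.465). EMC6, a small subunit next to EMC3, was the least counted member, with 196 to 286 fragments per library. It gave 6.25 to 7.42 CPM in siCtrl and 7.42 to 8.34 CPM in siXBP1, a log2 difference of 0.17 (95% interval -0.01 to 0.36) with an edgeR adjusted p of 0.141. The exons of a readthrough gene on the other strand, P2RX5-TAX1BP3, cover 74.3% of the 769 exon bases of EMC6. Fragments that fall on both genes were not counted, so that its count comes from a part of the mRNA.

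Among the subunits that reach into the lumen, EMC1 also fell after knockdown, but by little. Its level was 60.0, 69.1, 64.7 and 67.5 CPM in siCtrl and 56.8, 56.1, 52.5 and 56.1 CPM in siXBP1. The highest treated library lay below the lowest control (log2 fold change -0.24 ± 0.05 SE, edgeR adjusted p = 5.32e-04). MKC8866 libraries held 58.3, 62.5, 61.4 and 67.2 CPM and Vehicle libraries 57.5, 54.3, 61.0 and 62.8 CPM. The order here was the opposite, with overlap, and the log2 difference of 0.08 did not pass the test (95% interval -0.03 to 0.19, edgeR adjusted p = 0.501). The responses of EMC1 differed by -0.32 (interaction, edgeR adjusted p = 0.00176).

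EMC10 was the member with the most CPM and a wide spread between libraries. It was 136, 173, 158 and 175 CPM in siCtrl and 149, 174, 151 and 182 CPM in siXBP1, which overlapped throughout (log2 fold change 0.03, 95% interval -0.11 to 0.18). In Vehicle it was 142 to 158 CPM and with MKC8866 140 to 158 CPM, with a log2 difference of 0.03 (95% interval -0.07 to 0.13). Adjusted p-values from edgeR were 0.764 and 0.846. EMC4 was flat as well, at 67.4 to 68.7 CPM in siCtrl and 65.9 to 68.4 CPM in siXBP1. With MKC8866 it was 59.2 to 65.9 CPM, against 64.1 to 69.8 CPM in Vehicle (log2 -0.08 ± 0.05 SE, edgeR adjusted p = 0.432).

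**Figure D2:**
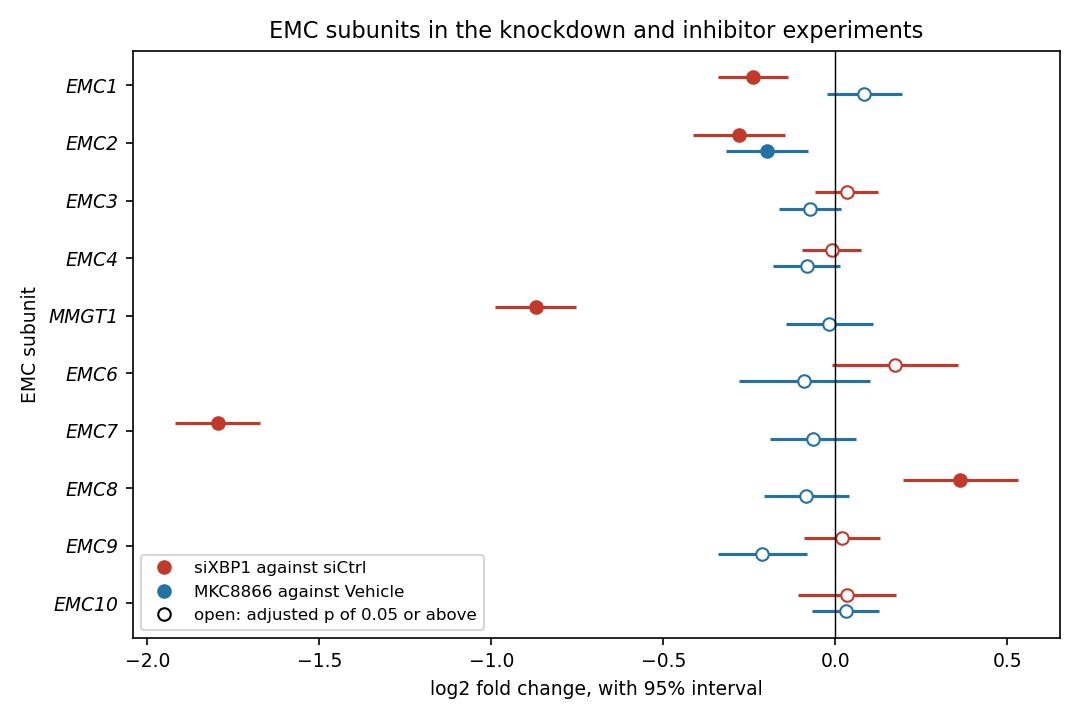
Log2 fold change of each EMC subunit with its 95% interval, for siXBP1 against siCtrl (red) and MKC8866 against Vehicle (blue), 4 libraries per group. Filled points passed an adjusted p of 0.05. EMC7 (-1.80) and MMGT1 (-0.87) stand apart in the knockdown only, and their interactions passed the test.

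The cytosolic subunits moved in different directions. EMC2, the scaffold of the cap, was 55.2, 48.4, 51.4 and 61.9 CPM in siCtrl and 41.8, 47.9, 45.7 and 43.3 CPM in siXBP1. The closest libraries of the 2 groups differed by under 1 CPM, and the fall was called (log2 fold change -0.28 ± 0.06 SE, edgeR adjusted p = 0.00142). Without siCtrl library 4, its highest, the log2 fold change was -0.20 and the adjusted p 0.0105 in the same edgeR test. EMC2 was also the one member called with MKC8866, at 43.4, 51.2, 45.0 and 50.02 CPM against 51.6, 57.8, 51.7 and 56.8 CPM in Vehicle. All treated libraries were again below all controls, with a log2 fold change of -0.20 ± 0.06 SE and an edgeR adjusted p of 0.0468. That call was lost when Vehicle library 2 or 4 or MKC8866 library 1 or 3 was left out, with adjusted p-values of 0.127, 0.155, 0.157 and 0.174. The same-numbered libraries of this experiment varied together, and once the replicate number was added as a block the adjusted p became 4.43e-05. The 2 responses of EMC2 were not shown to differ (interaction -0.08, 95% interval -0.27 to 0.11, edgeR adjusted p = 0.607).

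EMC8 and EMC9 are paralogs that take the same place on EMC2, and of the pair EMC8 was called in the knockdown and EMC9 was not. EMC8 (chromosome 16, 85771758 to 85799608, minus strand) was at 28.9, 30.0, 25.4 and 25.1 CPM in siCtrl. In siXBP1 it was at 33.9, 33.3, 42.5 and 31.2 CPM, each above every control, although library 3 lay well above the rest. This was a rise of 0.36 ± 0.08 SE on the log2 scale (edgeR adjusted p = 0.00102). In Vehicle the level was 32.8, 35.8, 31.7 and 31.5 CPM, so that the siXBP1 libraries lay close to the controls of the other experiment. With MKC8866 it was 29.8, 32.8, 33.0 and 28.5 CPM (log2 -0.09, 95% interval -0.21 to 0.04, edgeR adjusted p = 0.565). The responses differed by 0.45 (interaction, edgeR adjusted p = 0.00236).

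EMC9 (chromosome 14, 24138959 to 24141588, minus strand) was 31.2, 31.0, 33.4 and 31.3 CPM in siCtrl and 33.8, 30.5, 33.2 and 31.1 CPM in siXBP1. The knockdown groups overlapped (log2 fold change 0.02, 95% interval -0.09 to 0.13, edgeR adjusted p = 0.832). In the inhibitor experiment it was 41.8, 35.9, 35.3 and 36.8 CPM in Vehicle and 36.0, 30.6, 32.0 and 30.6 CPM with MKC8866. The first library was the highest of its group in both, and only MKC8866 library 1 reached into the range of the controls. The log2 fold change was -0.21 ± 0.06 SE, with an edgeR adjusted p of 0.0550 that missed the threshold. In the fit blocked by replicate number EMC9 was called lower (adjusted p = 1.37e-04). The responses differed by 0.23 (interaction, edgeR adjusted p = 0.0428), a difference that was called in 6 of the 16 fits that left out a library, with the highest adjusted p at 0.122 without Vehicle library 1. Of its 1588 exon bases, 20.2% are shared with genes on the other strand.

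With MKC8866, then, 1 of the 10 members was called lower and none higher, where 3.11% of the 21045 genes tested were called lower and 1.36% higher. An unadjusted p under 0.05 was reached by 2 members, beside 15.2% of all genes, and by 5 with the replicate block, beside 23.5%. The block by replicate number made this 2 lower (EMC2 and EMC9) and none higher, beside 7.05% and 6.0% of all genes. The median log2 fold change was -0.08, against 0.00 over all genes. All treated libraries were below all controls for 2 members, EMC2 and EMC3, which was the case for 5.29% of all genes, and above them for none, against 3.98% of all genes. The interaction passed the test for 5 members (EMC1, MMGT1 and EMC7 lower in the knockdown than with the inhibitor, EMC8 and EMC9 higher), and for 23.3% of the 20357 genes tested in both (12.7% lower and 10.6% higher). An interaction between experiments with their own controls cannot tell the kind of inhibition from the experiment.

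To compare subunits with each other, counts were divided by the exon length of the deposited annotation, as CPM per kilobase of exon (FPKM). Over all exon bases, EMC7 had the highest value in siCtrl, at 31.1 ± 1.63 FPKM (SD, n = 4), followed by EMC9 at 20.0 ± 0.717. EMC4, EMC10, EMC3 and EMC2 lay close together, between 14.3 and 15.3 FPKM, and their neighbours in that order did not differ beyond their SD. MMGT1, EMC6, EMC8 and EMC1 had the lowest values, from 8.90 down to 6.14 FPKM, that of EMC6 being divided by all 769 exon bases although those shared with another gene were not counted. In siXBP1, EMC7 stood at 8.95 ± 0.545 FPKM and took the seventh place. Its share of the summed FPKM of the 10 members was 22.1% ± 0.649 in siCtrl and 7.77% ± 0.361 in siXBP1, and 21.9% ± 1.37 in Vehicle and 22.3% ± 1.22 with MKC8866 (SD, n = 4). MMGT1 became the lowest member, at 4.86 ± 0.226 FPKM. The sum over all 10 was 141 ± 4.18 FPKM in siCtrl and 115 ± 2.16 in siXBP1, and 145 ± 4.91 in Vehicle and 137 ± 3.33 with MKC8866. These orders and sums depend on the length chosen. The same counts were also divided by only the exon bases that a member shares with no other gene, without a new count. For EMC6 these are 198 bases. It then stood at 34.5 ± 2.56 FPKM in siCtrl and was the first member, with EMC7, which shares none, second at 31.1. Likewise, with the length of the canonical transcript EMC4 was first and EMC7 second in siCtrl (66.8 and 44.7 FPKM), and EMC7 took 5.96% of the sum in siXBP1.

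**Figure D3:**
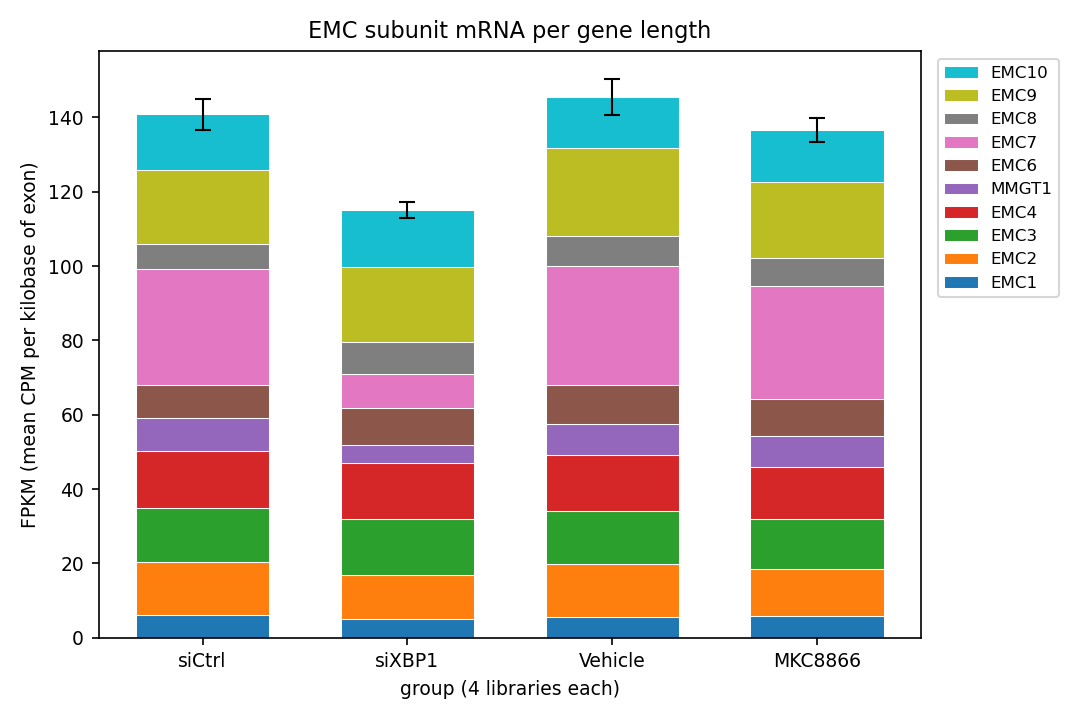
Mean CPM per kilobase of exon (FPKM) of the 10 EMC subunits, stacked by group (4 libraries each), with the SD of the summed level as the error bar. The EMC7 segment is 31.1 FPKM in siCtrl and 8.95 FPKM in siXBP1, and it is 31.9 and 30.4 FPKM in Vehicle and MKC8866.

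EMC1, EMC6, EMC7, EMC8 and EMC10 start within 1000 bases of a gene on the opposite strand, a layout in which both may be read from one stretch of promoter. In the knockdown, both genes were called in the same direction in 3 of these 5 pairs, and neither was called in the other 2. EMC7 and PGBD4, a gene derived from a transposase, start 125 bases apart. PGBD4 was 9.46 to 10.9 CPM in siCtrl and 8.15 to 9.61 CPM in siXBP1, with overlap, and it fell by 0.24 on the log2 scale (edgeR adjusted p = 0.0321), far less than EMC7. With MKC8866 PGBD4 fell and EMC7 was not called: it went from 8.82 to 10.1 CPM in Vehicle down to 7.15 to 7.52 CPM, with no overlap (log2 fold change -0.36 ± 0.08 SE, edgeR adjusted p = 0.00514). Within 250 kb of the start of EMC7, 9 other genes were tested. After knockdown 1 was lower (PGBD4) and 2 were higher, beside 18.2% and 16.5% of all genes tested. The other 6 were not called, among them EMC4, 123 kb away. Of the 2 higher, ENSG00000278472 stood at a mean of only 0.114 CPM in siCtrl.

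MRTO4, a ribosome assembly factor 13 bases from the start of EMC1, fell by 0.16 in the knockdown (edgeR adjusted p = 0.0189). COX4I1, a subunit of cytochrome c oxidase 975 bases from the start of EMC8, rose by 0.21 (edgeR adjusted p = 5.51e-04). TAX1BP3 beside EMC6 and GARIN5A beside EMC10 gave log2 values of 0.31 and 0.33 that were not called (edgeR adjusted p = 0.117 and 0.111).

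**Figure D4:**
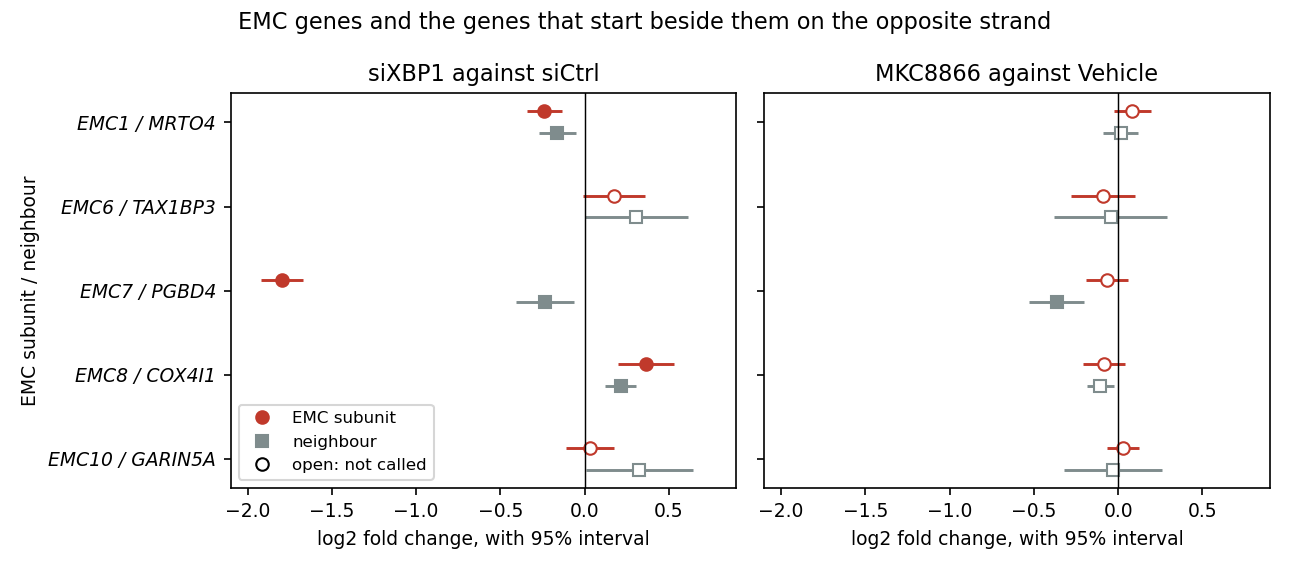
Log2 fold change with 95% interval of 5 EMC subunits (circles) and of the gene that starts within 1000 bases on the opposite strand (squares), in the knockdown (left) and the inhibitor experiment (right). Filled symbols were called. PGBD4 is filled in both, at -0.24 and -0.36, while EMC7 is at -1.80 and -0.07.

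EMC1-AS1, a non-coding gene on the other strand that shares 408 exon bases with EMC1, fell in both experiments although EMC1 was called only in the knockdown. It was weakly counted, at 1.64, 1.72, 1.44 and 1.23 CPM in siCtrl and 0.414, 0.545, 0.441 and 0.487 CPM in siXBP1. In Vehicle it was 1.66, 1.31, 1.41 and 1.91 CPM and with MKC8866 0.466, 0.660, 0.579 and 0.550 CPM. Neither comparison showed overlap, and the falls were -1.66 ± 0.22 SE and -1.48 ± 0.21 SE on the log2 scale (edgeR adjusted p = 3.56e-06 and 4.26e-05). Counting was done without strand, so reads of EMC1-AS1 and of unannotated EMC1 transcripts in the same place cannot be told apart. EMC3-AS1, which overlaps EMC3, fell in the knockdown by 0.26 (edgeR adjusted p = 0.00162) while EMC3 was not called.

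Other machinery that brings proteins into the ER membrane was read in the same fits. SEC61 is the main channel, and the TRAP complex and RAMP4 (the product of SERP1) are its partners: of 13 such genes, 11 were lower and 1 higher after knockdown, with a median log2 fold change of -0.76, and 10 were lower and none higher with MKC8866, with a median of -0.41. These counts, and those of the lists that follow, stand beside 18.2% of all genes lower and 16.5% higher in the knockdown, 3.11% and 1.36% with MKC8866, and 7.05% and 6.0% with MKC8866 and the replicate block. Values ran from -1.50 (SERP1) to 0.20 (SEC61A2) in the knockdown and from -0.94 (SSR2) to 0.09 (TRAM2) with the inhibitor. The GET pathway delivers tail-anchored proteins to the insertase of GET1 and CAMLG. Of its 7 genes, none was lower and 1 (GET4) was higher after knockdown, with overlap between the groups and no call in DESeq2, and the median was -0.01. None was called with MKC8866, and 2 (GET1 and CAMLG) were called lower with the replicate block.

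The multipass translocon joins SEC61 behind the ribosome for proteins with many membrane segments. Of its 9 genes, TMEM147 (-0.41), NCLN (-0.26) and NOMO2 (-0.18) were called lower after knockdown and RAB5IF (0.32) higher, and the median was -0.06. The RAB5IF groups overlapped, and its call was lost in DESeq2, with the replicate block (edgeR adjusted p = 0.0535) and when library 3 or 4 of either group was left out. With MKC8866 none was called, and the block called TMCO1 lower and NCLN higher. NOMO1, NOMO2 and NOMO3 are near-identical copies whose counts are uncertain. TMEM208, of the SND route that also serves tail-anchored proteins, fell in both experiments, by 0.30 and 0.24 on the log2 scale (edgeR adjusted p = 6.57e-05 and 0.00885).

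**Figure D5:**
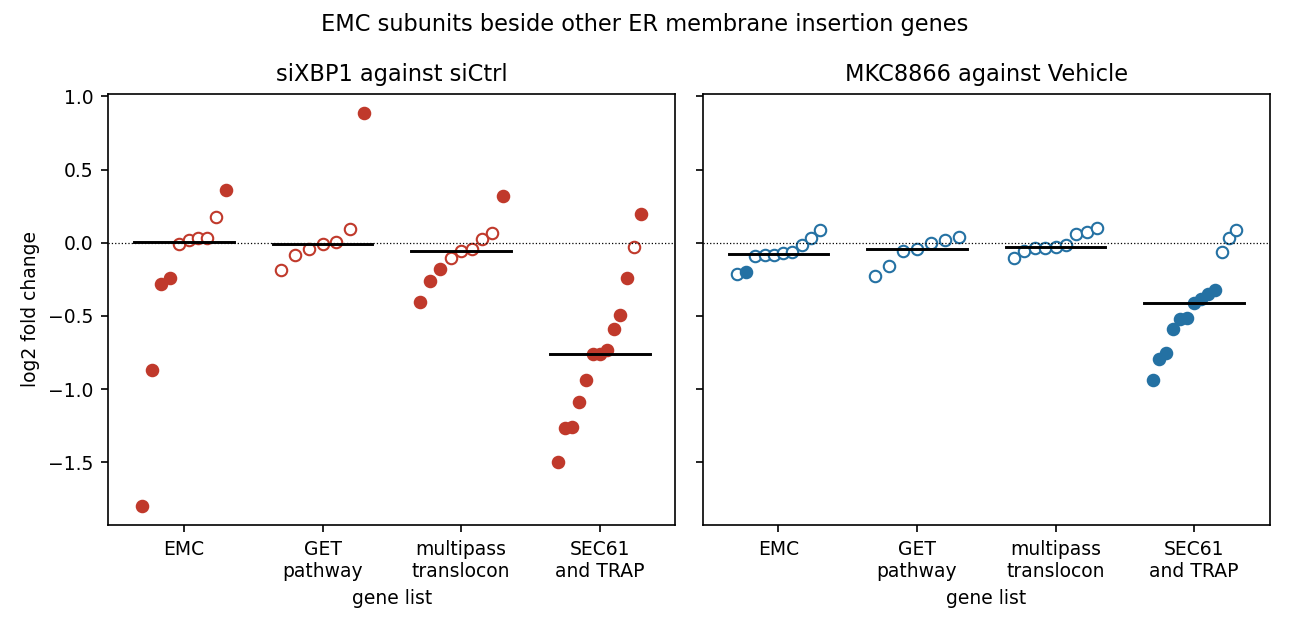
Log2 fold change of each gene of the EMC (10), GET pathway (7), multipass translocon (9) and SEC61 and TRAP (13) lists, in order of value within a list, with a line at the median. Filled points were called, and the SEC61 and TRAP medians lie at -0.76 in the knockdown (left) and -0.41 with MKC8866 (right), against 0.00 and -0.08 for the EMC.

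A few genes whose proteins are known to need the EMC for insertion were also read. SOAT1, which esterifies cholesterol, was 87.2 to 96.8 CPM in siCtrl and 63.7 to 68.4 CPM in siXBP1 (log2 fold change -0.53, edgeR adjusted p = 4.85e-09), and FDFT1, the squalene synthase, fell by 0.15 (edgeR adjusted p = 0.00278). Both were not called with MKC8866, at -0.01 and 0.01. ADRB1, the beta-1 adrenergic receptor, rose in both experiments, from 1.07, 1.06, 1.403 and 1.23 CPM to 2.49, 2.05, 2.00 and 2.46 CPM after knockdown and from 1.83, 1.04, 1.31 and 1.56 CPM to 2.26, 2.15, 2.18 and 2.60 CPM with MKC8866. The groups did not overlap in either (log2 fold changes 0.92 and 0.68, edgeR adjusted p = 1.28e-04 and 0.0145). Protein levels were not measured in these files.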

How the data were processed

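Per the labels and the methods of the study, total RNA of LNCaP cells was made into 16 stranded TruSeq libraries and sequenced in pairs. The authors aligned the reads to hg38 with STAR (2.5.2a) and deposited raw counts of fragments per gene, made with featureCounts (1.5.0) on Ensembl release 85 with no strand option, so that fragments that map to several places or to 2 genes were not counted. The deposited exon length (other values of the table) served for FPKM, which was computed here.

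The quasi-likelihood test of edgeR 4.0.16 (R 4.3.3, TMM, two-sided, Benjamini-Hochberg over all genes tested) was run on these counts separately for the knockdown and the inhibitor. A gene entered when each group had a library that passed 5 counts. Genes were called at an adjusted p under 0.05. The interaction used all 16 libraries. SE is the log2 fold change over the root of F. Members and lists were chosen with earlier results of these data known. Named genes are the 10 members, XBP1, the listed partners and genes that overlap a member or start within 1000 bases of it on the other strand, some of which are not reported here.

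The study calls the 4 libraries of a group independent samples, and the labels do not say whether they came from separate cultures or days, so p-values measure the spread between these libraries. Same-numbered libraries deviated together in the inhibitor experiment (correlations 0.102 to 0.379 in the 4 pairs) but not in the knockdown (0.00104 to 0.0685). In the inhibitor experiment Vehicle 1 with MKC8866 3 (0.137) and Vehicle 3 with MKC8866 1 (0.159) exceeded the pair numbered 3 (0.102). Numbers 1 and 3 are thus not told apart by these correlations. On data simulated from the knockdown, 86% of 100 genes changed by 0.3 on the log2 scale and 100% of 100 changed by 0.6 were called, with 3 false calls in 21021 genes. For the inhibitor these were 87%, 100% and 8 in 21045. The simulation gave all genes the same dispersion, drew the changed genes from those with over 100 expected counts and did not link same-numbered libraries. These shares may therefore not hold for the real libraries. Alternatives were DESeq2 1.42.0, DESeq2 size factors in edgeR, no filter, a minimum of 10 counts in all libraries, the replicate block, 1 fit of all libraries, a threshold of 0.01 and each library left out. After seeing the data, the canonical transcript length, the exon bases shared with no other gene and the block with each replicate number left out were added. The windows of 250 kb around the starts of EMC7 and MMGT1 were also chosen after their values were seen, and that of MMGT1 is not reported here. Figures were drawn with matplotlib 3.10.9.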

Additional observations from a re-analysis of the deposited data

Results flagged for a closer look

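The responses of 5 members differed between the experiments by the interaction test, beside 23.3% of the 20357 genes tested in both. The experiments had separate controls. The log2 response to siXBP1 minus that to MKC8866 was -0.32 for EMC1, -0.85 for MMGT1, -1.73 for EMC7, 0.45 for EMC8 and 0.23 for EMC9, with edgeR adjusted p-values of 0.00176, 3.78e-09, 2.95e-15, 0.00236 and 0.0428. Of these, the EMC9 value was called in 6 of 16 fits with a library left out, and the other 4 in all 16.

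One siCtrl library lay apart from its group for EMC9, at 33.4 CPM against 31.0 to 31.3 CPM in the other 3. About 1 group in 20 is marked in this way by chance.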

How the results depend on the processing

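After knockdown, 4 members lower and 1 higher were called under every alternative run and with each library left out, and the log2 fold changes over these fits ran from -1.82 to -1.75 for EMC7, -0.89 to -0.84 for MMGT1, -0.32 to -0.20 for EMC2, -0.27 to -0.20 for EMC1 and 0.26 to 0.42 for EMC8. EMC4 turned to 0.0004021 with at least 10 counts in every library. Leaving out 1 library gave ranges that crossed 0 for EMC4 (-0.012 to 0.0084) and EMC10 (-0.033 to 0.088) in the knockdown, for MMGT1 (-0.061 to 0.022), EMC6 (-0.156 to 0.0027) and EMC10 (-0.0013 to 0.063) with MKC8866, and for EMC10 in the interaction (-0.064 to 0.053).

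With MKC8866 the count of members lower was 2 with DESeq2, with no filter, with at least 10 counts and with the replicate block, 0 at an adjusted p under 0.01, and 0 to 1 with a library left out. In 1 fit of all 16 libraries EMC2 was not called (adjusted p = 0.0840) and EMC9 was (0.02965). With the block and a replicate number left out, 2 to 3 members were called, EMC2 and EMC9 in all 4 fits (highest adjusted p 6.85e-04 and 0.00207), and EMC6 turned to 0.0018 without replicate 1. Over all genes the block called 1484 lower and 1262 higher, and leaving out a library 527 to 833 lower and 180 to 484 higher. The cause was not tested.

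The GET list had 1 lower in the knockdown and 2 lower with MKC8866 under the block, 0 to 1 lower with a library left out, and 0 higher with DESeq2. For the multipass list DESeq2 and the block gave 0 higher in the knockdown (0 to 1 with a library left out), the gene lost being RAB5IF, and the block 1 lower and 1 higher with MKC8866. SEC61 and TRAP genes called higher after knockdown were 0 to 1. The block changed no other call of a member. EMC6, the least counted member, had the largest SE in both comparisons (0.088 and 0.093).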
